A study of Mus musculus with 8 samples.

Results

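RNA polymerase II (Pol II) contacts and occupancy in mouse liver were described here from a single experiment, named JM08 in the labels, across the protein-coding genes. The study used ChIA-PET, which pulls down crosslinked chromatin with an antibody, ligates DNA ends held in the same complex through a linker, and reads a short tag from each side. Each pair of tags is a PET. The JM08 pool was taken as every row marked with that experiment, which gave 474478 of the 2753554 PETs of the series. PETs with the same read-1 position and read-2 positions within 2 bp were then counted once. After this collapse and without 12 PETs that touched the mitochondrial chromosome, 465352 PETs with 930704 ends remained, and they were counted over 21887 protein-coding genes.

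All mice were wild-type C57BL/6, 3 to 6 months old, with free access to food and water in a light-dark cycle. Livers were collected at ZT06, the middle of the day, or ZT18, the middle of the night, and chromatin of 3 to 7 livers went into each pull-down with 8WG16, a monoclonal antibody to Pol II. The JM08 pool joins 4 libraries, 2 from each time, crosslinked with 1.5 mM EGS and 1% formaldehyde. EGS is a long crosslinker that links proteins to each other. The JM12 pool was crosslinked in the same way and joins 1 library from each time. The JM11 pool was crosslinked with 1% formaldehyde alone and also joins 1 library from each time. The rows carry no library or time point, so each experiment is 1 pool that mixes day and night. There is no spread between replicates, no p-value can be given, and all intervals below are 95% intervals for counting error only. PCR copies are not independent molecules, so the true error is larger.

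Pol II transcribes protein-coding genes. It is recruited at the promoter, often pauses shortly after the start, moves through the gene and continues past the site where the transcript is cleaved before it leaves the DNA. The antibody 8WG16 was raised against the repeated tail of its largest subunit, which the gene Polr2a encodes. Hepatocytes, the main cells of the liver, make most plasma proteins and carry out gluconeogenesis, the urea cycle and drug metabolism. In whole liver, more cells of a type and more polymerase per cell cannot be told apart.

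The promoters of 4 genes with many PET ends are shown first, since they are the DNA on which these ends lay. They come from RefSeq on GRCm38.p6 and run from 250 bases before to 50 bases after an annotated start, written 5′ to 3′ in the direction of the gene, here always the plus strand. Pck1 encodes the enzyme that commits carbon to gluconeogenesis and its promoter is chr2:173152823-173153122. Alb encodes albumin (chr5:90460620-90460919). Errfi1 encodes a feedback inhibitor of the EGF receptor, and its second annotated start is shown (chr4:150854820-150855119). Tat encodes tyrosine aminotransferase (chr8:109990186-109990485). Capitals mark matches on either strand, and matches may overlap. The letters searched were TATAAA, the core of the TATA element, and CCAAT, an element bound by NF-Y. The E-box bound by clock factors was searched as CACGTG. The GC box bound by Sp1 was searched as GGGCGG. A half-site of the liver factor HNF1 was searched as GTTAAT, the cAMP response element as TGACGTCA, and the D-box bound by the Dbp protein as TTATGTAA.
Pck1: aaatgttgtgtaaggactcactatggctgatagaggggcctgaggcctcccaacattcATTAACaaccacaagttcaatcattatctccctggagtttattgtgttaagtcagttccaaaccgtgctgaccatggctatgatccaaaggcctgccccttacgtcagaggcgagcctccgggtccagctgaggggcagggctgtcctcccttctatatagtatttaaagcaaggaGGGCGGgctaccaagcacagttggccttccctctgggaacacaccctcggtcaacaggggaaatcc
Alb: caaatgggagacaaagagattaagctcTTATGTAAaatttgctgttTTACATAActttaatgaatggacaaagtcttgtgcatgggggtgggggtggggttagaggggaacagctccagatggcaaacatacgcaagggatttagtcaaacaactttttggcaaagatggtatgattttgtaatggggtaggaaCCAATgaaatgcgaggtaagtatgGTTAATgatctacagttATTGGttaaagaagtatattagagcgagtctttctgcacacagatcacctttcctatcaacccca
Errfi1: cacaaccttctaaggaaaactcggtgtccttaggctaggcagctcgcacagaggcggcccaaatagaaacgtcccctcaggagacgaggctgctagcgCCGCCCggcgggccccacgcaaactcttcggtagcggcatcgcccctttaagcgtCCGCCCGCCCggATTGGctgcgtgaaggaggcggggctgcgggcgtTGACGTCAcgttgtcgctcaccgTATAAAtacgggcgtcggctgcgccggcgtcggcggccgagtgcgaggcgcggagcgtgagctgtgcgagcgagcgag
Tat: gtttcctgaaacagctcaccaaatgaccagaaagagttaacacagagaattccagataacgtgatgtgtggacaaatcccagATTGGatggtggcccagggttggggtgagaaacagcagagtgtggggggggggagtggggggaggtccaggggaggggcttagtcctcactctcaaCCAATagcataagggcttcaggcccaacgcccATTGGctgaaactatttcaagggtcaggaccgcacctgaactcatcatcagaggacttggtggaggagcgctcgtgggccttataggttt

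Within these 300 bases, the Pck1 promoter held 23 JM08 ends, 2 JM12 ends and 20 JM11 ends. The Alb promoter held 22, 10 and 11 ends in the same order, Errfi1 42, 17 and 30, and Tat 30, 12 and 12. JM08 had the most ends at each of these 4 promoters although it has the fewest PETs of the 3 pools. The 4 genes are among the densest in JM08, so the choice favours this lead. The Ahsg promoter held 11, 6 and 7 ends and Apoa1 11, 4 and 7. The outer start of Errfi1 held 4, 5 and 4, and the Dbp promoter 2, 2 and 1. In the Alb promoter the script found 2 D-box matches, 2 CCAAT boxes and 1 HNF1 half-site, whose first base lies 32 bases before the start. The Errfi1 promoter held a TATA box beginning 28 bases before the start, a cAMP response element, 3 GC boxes and 1 CCAAT box. The Pck1 promoter held 1 GC box and 1 HNF1 half-site, and the Tat promoter 3 CCAAT boxes. Over the 17486 genes with such a promoter sequence outside chromosome 18, 13.3% held a TATA box, 39.0% a CCAAT box, 7.90% an E-box, 46.3% a GC box, 6.29% an HNF1 half-site, 2.34% a cAMP response element and 0.909% a D-box. A match is a run of letters and was not tested as a binding site. Forms of an element that differ from the searched letters were not counted, so a promoter without a match can still hold one.

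JM08 ends were spread thinly over the genome and gathered at a minority of genes. The mean over the nuclear chromosomes was 0.342 ends per kb. A gene's relative density is its number of ends, over the gene and 2.5 kb either side, divided by the number that this mean gives for that length. Gene spans covered 41.0% of the nuclear length and held 55.2% of the ends (55.1 to 55.4%), against 54.2% in JM12 (54.2 to 54.3%) and 48.5% in JM11 (48.4 to 48.5%). The median gene had 14 ends and a relative density of 1.22, the 90th percentile was 4.51 and the 99th was 16.8. No end was found in 1784 genes, a count that allows up to 3 ends in each.

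A gene was counted as dense with at least 10 ends and a relative density of at least 5. By that rule 1914 of the 21887 genes (8.74%) were dense in JM08, against 534 in JM12 and 88 in JM11. Of the 88 genes dense in JM11, 88 were dense in JM08, and of the 534 dense in JM12, 513 (96.1%) were. The reverse shares were 4.60% and 26.8% of the JM08 genes. At the threshold, Ino80e lay just inside with 5.002 and Nup43 just outside with 4.999. The dense genes were short, with a median length of 6.79 kb against 17.2 kb over all genes. Neighbours share ends where their spans overlap: 1009 of the dense spans stood alone, and the other 905 overlapped another dense span. When only ends that lie in a single span were counted, 1071 genes were dense. With PETs between chromosomes alone the count was 1248.

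The densest 1% of genes, 219 genes with at least 30 ends each, held 2.86% of all JM08 ends on 0.0967% of the nuclear length. The 219 densest genes of JM12 held 0.940% and those of JM11 0.534% of their pools' ends, on a similar length.

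**Figure D1:**
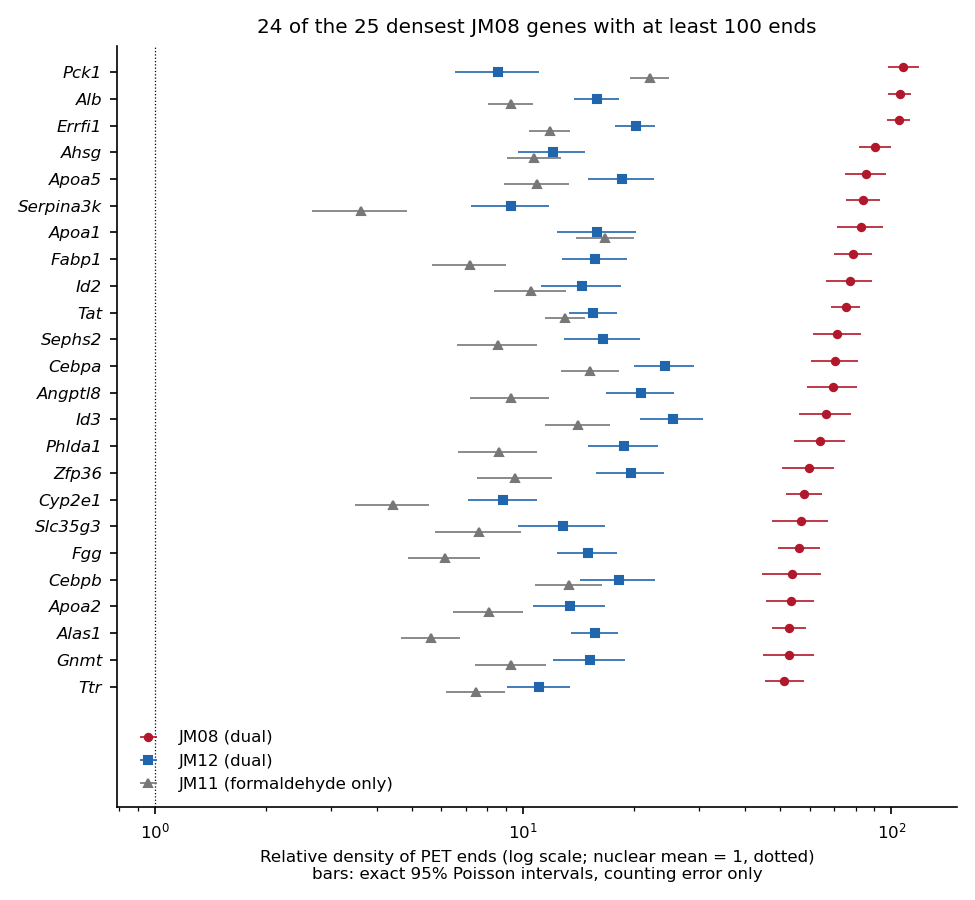
Relative density of PET ends (log scale, nuclear mean at 1) for 24 of the 25 densest JM08 genes with at least 100 ends, in the JM08, JM12 and JM11 pools, with exact 95% Poisson intervals for counting error. The JM08 points run from 51.3 for Ttr to 108 for Pck1, and for each of the 24 genes the JM08 interval lies above those of the other pools. The genes were picked by their JM08 density, which favours JM08 in this comparison.

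Among genes with at least 100 ends, the highest densities included those of a gluconeogenic enzyme, albumin and an EGF receptor inhibitor. Pck1 led with 413 JM08 ends and a density of 108 (97.7 to 119). It had 59 ends and a density of 8.56 in JM12, and 262 ends and 22.1 in JM11. Among genes with at least 30 ends in the pool concerned, Pck1 thus ranked first in JM08, 2nd in JM11 and 117th in JM12. Alb had 747 ends in JM08 (105, 98.0 to 113), 202 in JM12 (15.8) and 203 in JM11 (9.26). Errfi1 had 719 ends in JM08 (105, 97.1 to 113), 250 in JM12 (20.2) and 251 in JM11 (11.8). The 3 genes had overlapping intervals in JM08 and cannot be ranked among themselves.

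The other genes plotted came mostly from a few functions of the hepatocyte. Genes of secreted proteins were Ahsg (fetuin A, density 90.3), Apoa5 (85.5), Serpina3k (84.0), Apoa1 (82.5), Angptl8 (69.3), Fgg (56.2), Apoa2 (53.3) and Ttr (51.3). Genes of metabolism were Fabp1, the liver fatty acid binding protein (78.9), Tat (75.3), Sephs2, which makes selenophosphate (71.3), Cyp2e1 (58.1), Alas1, the first enzyme of haem synthesis (52.8), and Gnmt, which methylates glycine (52.7). Regulators were Id2 (77.0) and Id3 (66.3), inhibitors of helix-loop-helix factors, Cebpa (70.5) and Cebpb (53.8), factors of liver gene expression, Phlda1 (63.9) and Zfp36 (59.7), which promotes the decay of short-lived mRNAs. Slc35g3 (56.7) needs a caution: all of its 135 ends also lay in the span of Polr2a, and without flanks its density was 1.49. Angptl8 likewise lies inside the span of Dock6, with all of its 162 ends. Of the 193 Apoa1 ends 66 were shared with Apoc3, and of the 243 Apoa5 ends 113 with Zpr1. Gnmt shared 86 of its 154 ends with Pex6, and Apoa2 72 of its 179 with Tomm40l.

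The ends at these genes did not come from single positions. Between 81.5% and 94.5% of each gene's ends had distinct positions, and the densest 500 bases held from 8.84% (Alb) to 62.2% (Slc35g3) of them, with a median of 23.8%. In 15 of the 21 genes of known strand that window was centred within 1 kb of the outer start of the gene record. Errfi1 (1.41 kb) and Tat (4.51 kb) are not among the 15, although their windows lie near the starts whose promoters are printed above.

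By number of ends rather than density, long genes led. Ptprd had 887 ends, Lsamp 824, Lrp1b 767, Cntnap2 729, Dlg2 722, Macrod2 702 and Csmd1 616, with relative densities between 0.949 (Cntnap2) and 1.14 (Ptprd). These large genes are known mostly from the nervous system, and their ends were at the nuclear mean. Alb and Errfi1 stood among the 10 genes of most ends at a small part of that length. Ttc39c had 641 ends at a density of 11.6.

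The linker divides the pool into 190485 PETs with ATGT and 274867 with TAAG, and which libraries carried which linker is not stated in the labels. Over the 179 dense genes with at least 100 ends, the ratio of the densities in these subsets ran from 0.546 to 2.38 with a median of 1.08, and 1 gene passed 2-fold. Pck1 had 101 with ATGT and 113 with TAAG, Alb 117 and 97.2, and Cebpb 36.2 and 66.1. All 25 genes stayed above 5 in both subsets.

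Along the genes, JM08 ends were highest just after the start. In 9352 genes of at least 15 kb with a known strand, the relative density was 4.32 within 2.5 kb of the start, 1.05 in the body and 1.68 within 2.5 kb of the gene end. The start thus stood 4.11 times above the body in JM08, 2.32 times in JM12 and 1.46 times in JM11. Over the 288 of these genes that were dense in JM08, a choice made on JM08 ends, the values were 3.24 in JM08, 2.42 in JM12 and 2.94 in JM11, so the order of JM12 and JM11 was not the same as over all genes. In windows of 500 bases the peak was in the first window after the start, centred at 0.25 kb, with 12.8 in JM08, 7.07 in JM12 and 3.66 in JM11. Around the gene end the JM08 maximum was 2.06 and lay 2.25 kb beyond it, whereas JM12 had its maximum of 1.66 at 0.75 kb beyond and JM11 had 1.25 before the gene end. Genes with close neighbours were not left out, so windows beyond a gene end can hold the starts of other genes. At 9.75 kb beyond, JM08 still had 1.55. Over the 288 dense genes all 3 pools had their maximum 2.25 kb beyond the gene end, with 11.6 in JM08, 4.59 in JM12 and 2.21 in JM11. That window is the last inside the 2.5 kb flank whose JM08 ends counted toward a gene being dense, so the choice favours it. JM08 ends fell from 573 there to 440 and 316 in the next 2 windows. Among the 79 dense genes of this length with at least 100 ends, the start was above the body in 63 and above the gene end in 66, and the gene end was above the body in 32.

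**Figure D2:**
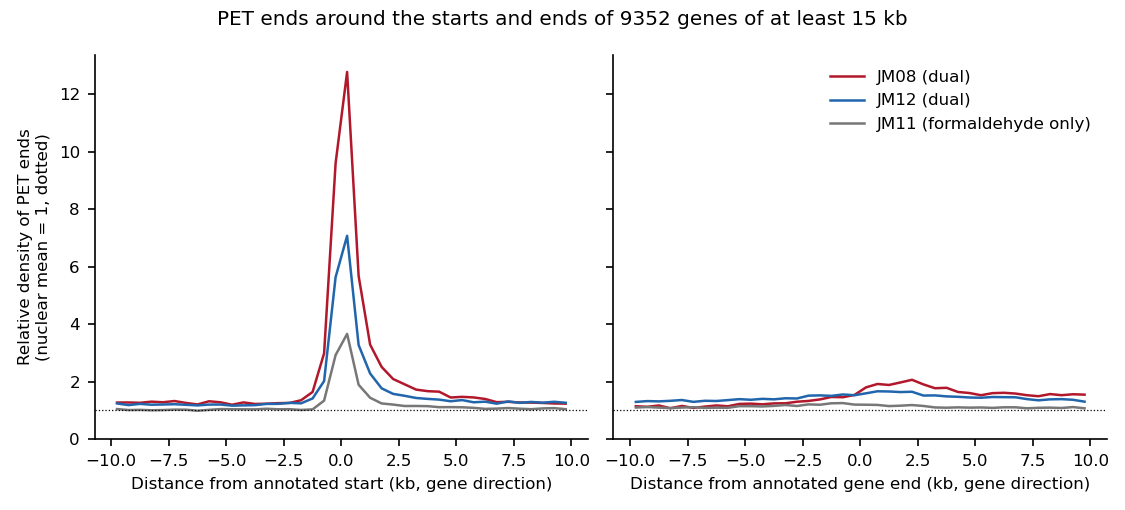
Relative density of PET ends by distance from the annotated start (left) and gene end (right), in windows of 500 bases, summed over 9352 genes of at least 15 kb in each pool. The JM08 line peaks at 12.8 after the start and keeps a broad shoulder beyond the gene end that reaches 2.06. Starts of neighbouring genes can lie in these windows.

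Single genes showed different shapes. Pck1 had 53 JM08 ends in the first 500 bases, and 62, 71 and 51 in the next 3 windows. The same windows held 3, 8, 4 and 3 ends in JM12 and 49, 35, 30 and 24 in JM11. Pck1 therefore had a clear start peak in JM08 and JM11 and none that could be seen in JM12 at these counts. Beyond its end Pck1 had a further group of 24 JM08 ends in the window centred 6.75 kb from the start. Alb was dense in all 3 parts, with 147 at the start, 89.1 in the body and 98.8 at the gene end. Its window centred at 12.75 kb, inside the gene, held 0 ends in each pool. Alb ends continued for more than 1 kb past the annotated end, with 30 and 34 JM08 ends in the windows centred at 16.25 and 16.75 kb. Errfi1 had its peak of 94 ends at 1.25 kb from its outer start, which is where the second annotated start lies, and densities of 101 in the body and 77.2 at the gene end. Fabp1 had 63 ends in its first 500 bases and a second rise of 20 ends in the window at 5.75 kb, just past its end.

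Other genes were denser at the start than in the body, to differing degrees. Egfr, the receptor that the Errfi1 protein inhibits, had a density of 105 at the start (179 ends) and 5.00 in its body (268 ends), in a gene of 162 kb. Polr2a, the gene of the Pol II subunit that the antibody recognises, had 79.5 at the start from 136 ends and 0.596 in the body from 4 ends. Klf9, a glucocorticoid-responsive factor, had 53.2 and 2.80. Gtf2a1, a general transcription factor subunit, had 51.5 and 1.06. Of the genes given here, Polr2a, Klf9 and Gtf2a1 had few ends in the body. Cat, which encodes catalase, had 60.2 and 10.4. Ass1 of the urea cycle had 48.5 at the start and 20.9 in the body (324 ends), and Apob 45.0 and 24.2 (283 ends), so their bodies were dense as well. These genes were chosen after their values were seen, apart from Polr2a, Ass1 and Apob, which are on the lists below.

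**Figure D3:**
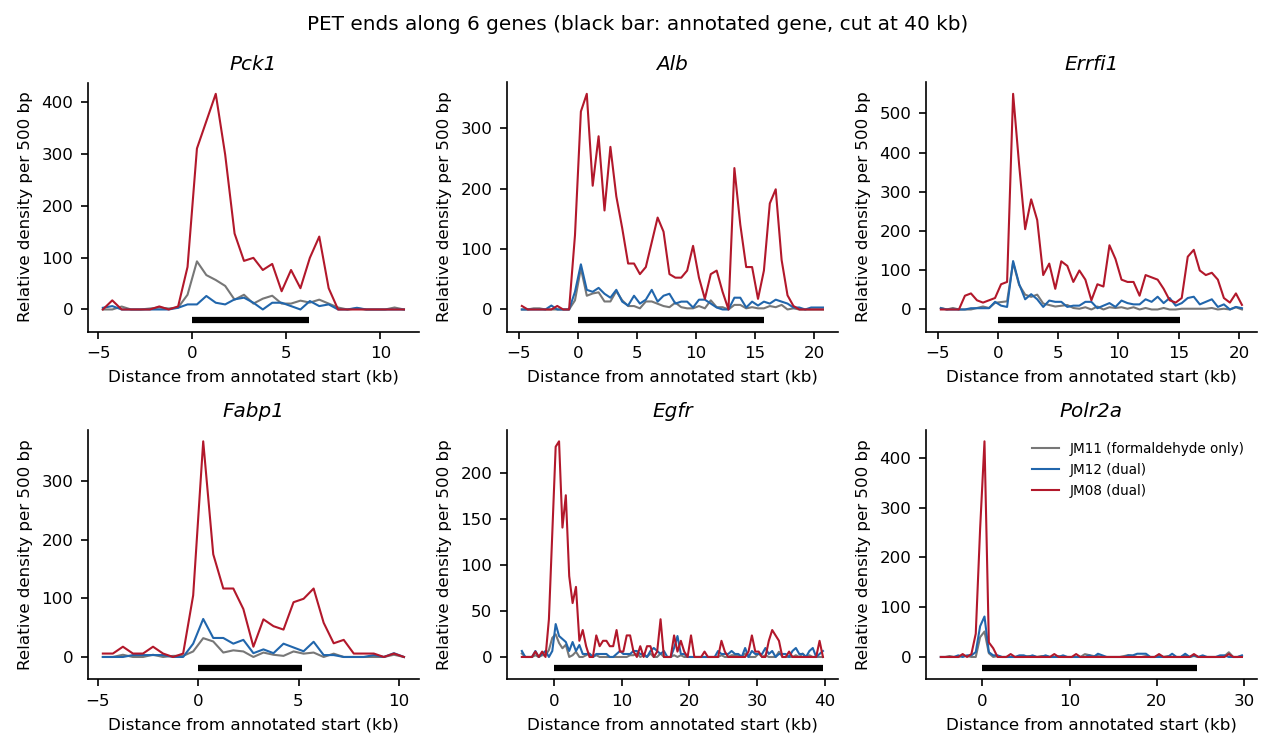
Relative density of PET ends in windows of 500 bases against the distance from the annotated start in kb, for 6 genes in the JM08, JM12 and JM11 pools, with the gene as a black bar (a longer gene is drawn in part). Pck1 and Errfi1 carry JM08 ends over the whole gene and past its end, and so does Alb apart from the window at 12.75 kb. Fabp1 has peaks at both ends, and in Egfr and Polr2a the ends gather at the start.

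The lists of genes by function were then examined, against the background of 8.74% dense genes and a median density of 1.22 over all genes. Of 30 plasma protein genes 28 were dense, with a median of 25.04 (2.77 to 105). Alb, Ahsg, Serpina3k and Apoa1 led, followed by the fibrinogen genes Fgg (56.2), Fga (42.4) and Fgb (41.3), the carriers Ttr (51.3), Trf (44.4) and Rbp4 (33.9), and Apoc3 (50.1). Kng1 (3.85) and Fetub (2.77) did not pass. Serpina1a (5.15), Serpina1b (6.23) and Serpina1c (6.62), which encode forms of alpha-1 antitrypsin, are near-identical copies. How tags that fit several of them were handled is not known, so their values are uncertain.

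Of 28 metabolic enzyme genes 25 were dense, with a median of 17.6 (1.902 to 108). In gluconeogenesis Pck1 had 108, G6pc 41.8 and Fbp1 21.5. In the urea cycle Arg1 had 28.1, Ass1 23.2, Asl 12.1, Cps1 10.9 and Otc 1.902. In amino acid breakdown Tat had 75.3, Hpd 22.1 and Tdo2 22.0. In lipid synthesis Fasn had 24.0, Scd1 21.8, Acly 4.85 and Hmgcs1 3.19. Cyp7a1, the rate-limiting enzyme of bile acid synthesis, had 9.35 and Cyp8b1 17.7. Otc, Acly and Hmgcs1 were the 3 members that did not pass.

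Of 18 hepatocyte transcription factor genes 13 were dense, with a median of 12.8 and a highest value of 70.5. After Cebpa and Cebpb came Xbp1 (38.4), a factor of the unfolded protein response, Foxa2 (27.0), Creb3l3 (17.7), Foxa3 (16.9) and the nuclear receptor gene Nr1i3 (15.3). Hnf4a had 284 ends and 11.7. Below the threshold lay Nr1h4 (4.92), Nr1i2 (3.12), Prox1 (2.83) and Nr5a2 (2.17), among others.

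Of 24 immediate-early and stress genes 18 were dense, with a median of 11.6 (0 to 59.7). Zfp36 was highest, then Jund and Dusp1 (both 37.5), the chaperone gene Hspa8 (35.1), Gadd45g (34.0) and Junb (31.2). Fos had 10.5 and Egr1 5.68. Fosb (1.41), Nr4a1 (1.47) and Atf3 (1.95) were near the median gene. Hspa1a had 0 ends and Hspa1b 6 ends, and since these heat-shock genes are near-identical copies their values are uncertain.

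Of 20 clock genes 7 were dense, with a median of 2.85 (0.989 to 43.7). Dbp, an output of the clock, had 151 ends and 43.7. Bhlhe40, a repressor, had 144 ends and 37.3. Nr1d1, which encodes REV-ERB alpha, had 13.9, Tef 7.41, Bhlhe41 5.52 and Per2 5.08. The activators lay near the nuclear mean, with 1.56 for Arntl, which encodes BMAL1, 1.13 for Clock and 0.989 for Npas2. Day and night are mixed in these values, so they say nothing of rhythm.

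Of 14 housekeeping genes 12 were dense, with a median of 14.2 and a lowest value of 2.20. Among them were Eef1a1 (42.8), Gapdh (22.5), Tpt1 (22.2), Ubb (22.0) and Actb (17.8), while Tubb5 (3.12) and Tuba1b (2.20) did not pass. Several of these genes have processed pseudogenes or close copies that could take some of their tags. Of 14 genes of the Pol II machinery 3 were dense, with a median of 1.92 (1.04 to 25.8): Hexim1 (25.8) and Cdk9 (9.02), which belong to the control of elongation, and Polr2a (13.9).

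Markers of cell types were used to check the tissue label. The 5 hepatocyte markers were all dense, from 5.15 (Serpina1a) to 105 (Alb). None of 7 macrophage, 5 leukocyte, 6 endothelial, 5 stellate or 16 markers of other tissues was dense, and 1 of 4 cholangiocyte markers was, Sox9 with 5.82. Their medians were 0.882, 1.22, 1.13, 1.02, 1.03 and 1.59. The macrophage genes Lyz2 and Vsig4 had 0 and 1 ends. Counts this low do not establish that a macrophage signal was absent. The lowest macrophage marker had a density of 0.334 in JM12 and 0.369 in JM11. The highest of the non-parenchymal markers after Sox9 was Csf1r with 3.06.

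**Figure D4:**
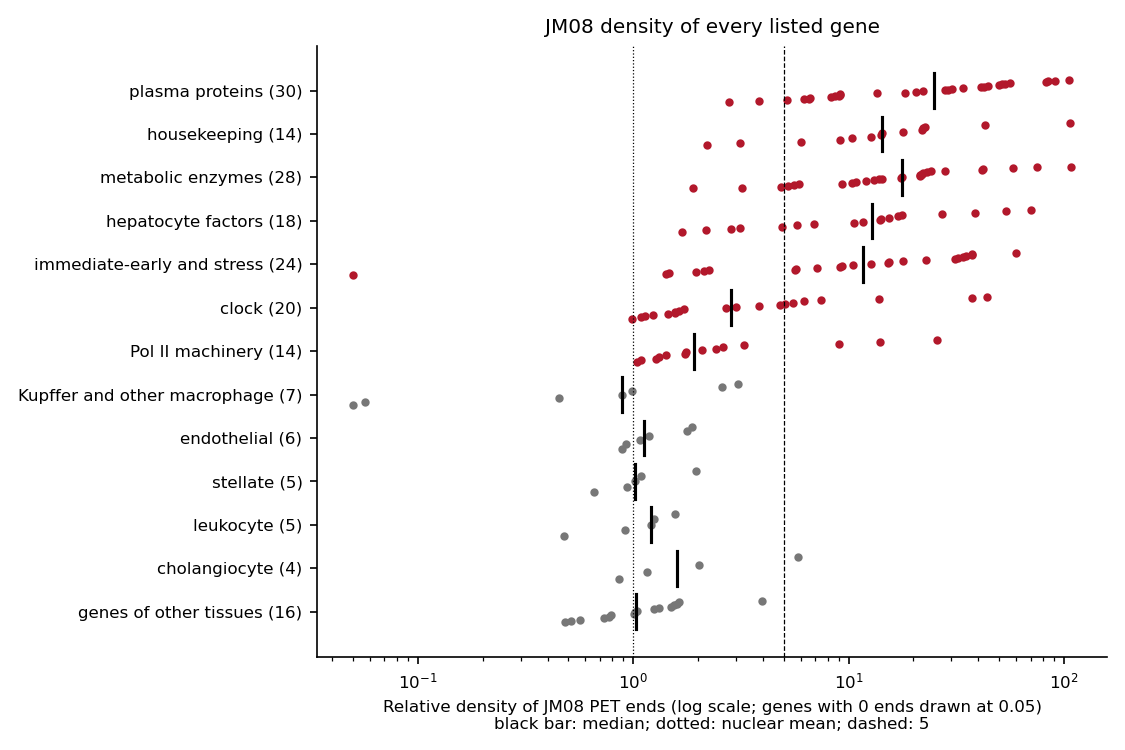
Relative density of JM08 PET ends (log scale) for every gene of the 7 functional lists (red) and 6 marker lists of other cells and tissues (grey), with the median as a black bar, the nuclear mean dotted and the dense threshold of 5 dashed. Medians run from 1.92 to 25.04 in the functional lists and from 0.882 to 1.59 in the marker lists.

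JM08 was next set against JM12, which shares its crosslinking. These are 1 pool each, so the comparison is between pools, and experiment, animals and number of libraries cannot be told apart. The pools also differ in their mix of PETs between chromosomes and within 8 kb, which is given below. Of 15110 genes with at least 20 ends in both pools together, 1636 (10.8%) were at least 2-fold denser in JM08 and 939 (6.21%) at least 2-fold less dense. The median ratio was 1.01. Relative to each pool's median gene, a shift of -0.22 on the log2 scale, the counts were 2454 and 585. The intervals excluded a ratio of 1 in 1525 of the 1636 and in 597 of the 939. Spearman's rho of the densities over all genes was 0.726, a description across genes that share a genome and are not replicates.

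Liver genes stood at the head of this comparison. The highest ratio among genes with at least 100 ends was Pck1, at 12.6 (9.58 to 16.9). Serpina3k followed with 9.05 (6.99 to 11.9), then Keg1, a glycine acyltransferase family member (7.53), Ahsg (7.51), Alb (6.66), Mettl7b (6.63), Cyp2e1 (6.57), Selenop, the selenium carrier of plasma (6.52), G6pc (6.20) and Ccdc152 (6.16). Ccdc152 shares 73 of its 89 JM08 ends with Selenop, whose span it overlaps. The lowest were Rasgef1a with 0.327 (0.179 to 0.562), B4galnt3 (0.343), Zfp385c (0.364) and Smpd3 (0.374), each from 16 to 22 JM08 ends at a density under 1. With PETs of at most 8 kb alone B4galnt3 had 0.505 and no longer passed 2-fold.

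To avoid choosing genes by either pool, the 88 genes dense in JM11 were taken. Of these 76 were at least 2-fold denser in JM08 than in JM12 and 0 were lower, with a median ratio of 3.10 (0.582 to 12.6). Against the background of 10.8%, 26 of 30 plasma protein genes, 24 of 28 metabolic enzymes, 10 of 18 hepatocyte factors, 13 of 22 compared immediate-early and stress genes and 10 of 14 housekeeping genes were denser in JM08. For the clock list it was 3 of 20 and for the Pol II machinery 4 of 14. No member of the 7 lists was 2-fold lower. Median ratios ran from 1.21 for the clock genes to 3.69 for the plasma proteins.

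Against JM11 the differences were wider. Crosslinking and experiment cannot be told apart here. Of 16064 genes compared, 4321 (26.9%) were at least 2-fold denser in JM08 and 723 (4.50%) at least 2-fold less dense, with a median ratio of 1.22 and a rho of 0.546 across genes. With PETs of at most 8 kb alone the counts were 1135 and 419. Serpina3k had the highest ratio, 23.2 (17.0 to 32.1), from 352 JM08 and 47 JM11 ends. Ces3b, a liver carboxylesterase, had 15.2, Cyp2e1 13.1, complement C3 12.9, Naa80 12.2, Gadd45g 11.6, Alb 11.4, Hyal3 11.3, Fbp1 11.005 and Fabp1 11.003. Naa80 and Hyal3 overlap and share 94 ends, so they are not separate cases. Pck1 had 4.87 (4.16 to 5.71), below its ratio to JM12. The lowest were Fap (0.314), Tmc2 (0.332) and Cfap74 (0.353), from 10 to 13 JM08 ends each. With PETs of at most 8 kb alone Ces3b had 4.13, Fabp1 5.30, Alb 6.09 and C3 6.28, and Tmc2 had 0.854 and no longer passed 2-fold.

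Of 528 compared genes dense in JM12, 511 were at least 2-fold denser in JM08 than in JM11 and 0 were lower, with a median ratio of 4.66. All 30 plasma protein genes, 28 of 28 metabolic enzymes and 13 of 13 compared housekeeping genes passed 2-fold. So did 15 of 18 hepatocyte factors, 17 of 20 compared immediate-early and stress genes, 9 of 20 clock genes and 6 of 14 genes of the Pol II machinery, against 26.9% of all compared genes. Both comparisons use the same JM08 pool. Of 14830 genes compared with both pools, 1512 were 2-fold denser than each and 350 were 2-fold less dense than each.

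The kinds of PET differed in how they gathered at genes. In JM08 73.1% of PETs joined different chromosomes, 22.6% lay within 8 kb, 0.150% (697 PETs) spanned 8 to 100 kb and 4.20% were longer. All 25 of the densest genes remained dense in PETs between chromosomes and in PETs within 8 kb. Pck1 had a density of 69.3 in the former and 234 in the latter, Alb 73.0 and 214, and Cyp2e1 33.4 and 141. Over the 25 genes the median factor relative to all PETs was 0.621 and 2.30. The mix of kinds differed between the pools. In JM12 80.2% of PETs joined different chromosomes and 14.8% lay within 8 kb, and in JM11 88.7% and 6.23%. JM08 thus had the largest share within 8 kb, the kind in which these 25 genes were denser. The pool comparisons above used all PETs except where a kind is named, so they include this difference. How much of each result it accounts for was not tested.

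PETs of 8 to 100 kb are the candidates for contacts between nearby DNA. Their share was largest in JM12, with 1964 PETs or 0.234% (0.224 to 0.245%). In JM11 it was 0.0276% (397 PETs). JM08 lay between, with 697 PETs or 0.150% (0.139 to 0.161%). Of these 245 (35.2%, 31.6 to 38.8%) lay within a single gene span, 205 (29.4%, 26.1 to 32.9%) joined different genes, 178 (25.5%) joined a gene to intergenic DNA and 69 (9.90%, 7.78 to 12.4%) had both ends intergenic. Intergenic here means outside every protein-coding span counted, so such an end can lie in a noncoding gene. Median distances were 16.7 kb within a gene and 38.2 kb between genes. JM12 had 23.8% between genes (21.9 to 25.7%) and 15.02% intergenic (13.5 to 16.7%), and JM11 15.9% (12.4 to 19.8%) and 29.0% (24.6 to 33.7%). JM08 thus had the largest share between genes and the smallest share between intergenic ends, beyond the counting intervals. The shares within a gene, 38.3% in JM12 and 35.8% in JM11, overlapped that of JM08. The shares moved with the choice of distance and flank: from 20 to 100 kb 23.7% of 413 PETs lay within a gene and 40.7% joined genes, and from 4 to 100 kb 46.5% and 21.4% of 1057. With no flank the shares were 27.8% and 20.4%.

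**Figure D5:**
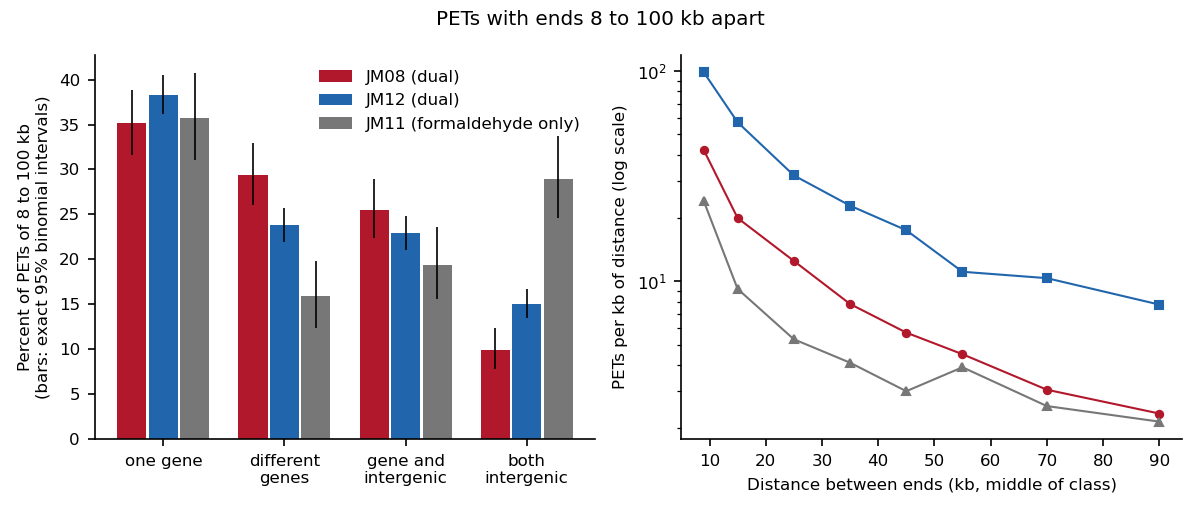
Left, percent of PETs of 8 to 100 kb in each class by pool, with exact 95% binomial intervals. Right, PETs per kb of distance (log scale) against the distance between ends in kb: JM08 falls from 42.0 at 8 to 10 kb to 2.35 at 80 to 100 kb.

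Starts were frequent among these ends. Of the JM08 short-PET ends 24.4% (22.2 to 26.7%) lay within 2.5 kb of an annotated start, against 11.5% of all JM08 ends. The values were 19.9% against 7.27% in JM12 and 8.94% against 4.58% in JM11. In 45 PETs (6.46%) both ends lay at starts. Dense genes were also frequent. To keep the choice of genes apart from these PETs, the 1248 genes dense in PETs between chromosomes were used, which held 7.08% of all JM08 ends and 17.2% of the ends of short PETs (15.3 to 19.3%). By PET, at least 1 end lay in such a gene in 27.1% (23.8 to 30.6%), and both in 7.32% (5.50 to 9.51%).

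Repeated contacts were few. At least 1 short PET touched 891 genes (4.07%) and at least 2 touched 82 (0.375%). Of these 82 genes 47 were dense, against 8.74% of all genes. Dense genes and long genes hold more ends, and the short PETs themselves count toward the density. No allowance was made for this, so the 47 is not a result about dense genes. Fbp1, the gluconeogenic enzyme gene, had the most with 4, and 3 of them lay within its span. One of these joined position 62879503 to 62888064 on chromosome 13, and its right end lay 0.234 kb from the annotated start. The others within the gene spanned 11.1 and 11.4 kb, and the fourth reached 23.5 kb to intergenic DNA upstream. Fbp1 had 0 such PETs in JM12 and JM11. Tat had 3, all to intergenic DNA, of which 2 began at neighbouring positions on chromosome 8, 109970934 and 109971170, and ended in Tat after 23.1 and 19.2 kb. The third reached 51.1 kb downstream.

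Arid5b had 3, all within this gene of 187 kb, and Slc29a1, which encodes a nucleoside transporter, had 3, of which 2 lay within it. Stard10, a lipid transfer protein gene, had 3, Rab30 3, Zfp395 3, Ndel1 3 and 3110082I17Rik 3. In JM12 3110082I17Rik had 3, and Slc29a1, Stard10 and Zfp395 had 2 each. Tat, Arid5b, Rab30 and Ndel1 had 0 there. Of genes with 2 in JM08, Foxa2 joined both times to intergenic DNA, over 18.1 and 14.6 kb, with ends on chromosome 2 at 148027637 and 148031562. Both Insig1 PETs also reached outside the protein-coding spans, over 27.8 and 15.4 kb, with ends on chromosome 5 at 28053250 and 28055629. The end at 28055629 lay inside Gm26608, a noncoding gene with 54 JM08 ends and a relative density of 26.0. The end at 28053250 lay within 2.5 kb of that gene. Cyp7a1 had 2, both to intergenic DNA, over 12.6 and 14.8 kb. Of the 82 genes 32 had at least 1 short PET in JM12 as well, where 9.56% of all genes had at least 1.

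Different genes were joined in 302 pairs, since spans overlap, and 10 pairs had 2 PETs. No pair had more. They came from 5 places. Glyat and Keg1, neighbouring genes of glycine acyltransferases, were joined over 63.5 and 57.3 kb on chromosome 19. Arap1 and Stard10 were joined over 21.6 and 56.2 kb on chromosome 7, and JM12 had 1 PET for this pair. Hnrnpl and Lgals4 were joined over 23.9 and 28.8 kb on chromosome 7. Cyp4f13 and Cyp4f14 were joined over 9.45 and 11.3 kb on chromosome 17, and as similar cytochrome P450 genes they could share misplaced tags. On chromosome 9, 2 PETs over 43.0 and 40.6 kb accounted for all 6 pairs of Apeh or Bsn with Amigo3, Gmppb or Rnf123. Of the 302 pairs 27 were also joined in JM12, which is 8.94% of the JM08 pairs and 3.92% of the 688 JM12 pairs, and 2 were among the 79 JM11 pairs.

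Single PETs joined several liver genes to a neighbour. Ahsg was joined to Fetub, its paralog, over 19.1 kb, Mat1a to Mbl1 over 55.2 kb, Bhmt to Dmgdh, the next enzyme of choline breakdown, over 51.4 kb, and Cebpa to Pepd over 86.5 kb. Pck1 was joined to Gm40011 over 30.02 kb. Of the lists, 11 of 28 metabolic enzymes, 8 of 30 plasma protein genes and 4 of 18 hepatocyte factors had at least 1 short PET. It was 1 of 24 immediate-early and stress genes, 1 of 14 housekeeping genes, 1 of 14 genes of the Pol II machinery and 0 of 20 clock genes. At 4.07% of all genes and 1 PET in most, absence says that none was detectable at this depth, and no contact of a single gene can be compared between pools.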

How the data were processed

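Per the submitters' processing notes, reads were aligned with Bowtie2 to mm10, with no version stated. The deposited file, made by the authors, lists PETs line by line, and its values are an experiment name, linker letters and the positions and distance of the 2 tags. PETs were collapsed within 2 bp (1.92% of JM08), counted over RefSeq genes of GRCm38.p6 with 2.5 kb either side, and divided by the nuclear mean, with nuclear length (2722.2 Mb) from the highest positions. JM08, JM12 and JM11 held 474478, 840210 and 1438866 PETs. Strand and starts came from the RefSeq promoter table (17492 genes); a start is the outer end of the gene record. Exact Poisson intervals were used for densities, and exact binomial (Clopper-Pearson) intervals for shares and for ratios of 2 counts. Counting was tested on simulated data. Python 3.11.15, numpy 2.4.6, pandas 2.3.3 and scipy 1.17.1 were used. The genes, lists and rules were chosen with earlier results of these data known. Genes were named as the 25 densest with at least 100 ends, the 10 with most ends, list members, the 10 highest and lowest ratios (at least 100 ends in both pools together), the 20 with most short PETs and pairs with at least 2; some of these genes are not reported here. Libraries could not be left out in turn, since no row names its library. Alternatives changed the collapse, flank, kind of PET, linker, minimum of ends, scaling and distance range.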

Additional observations from a re-analysis of the deposited data

Results flagged for a closer look

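Mitochondrial PETs entered no comparison. JM08 had 12 PETs that touched the mitochondrial chromosome among 474478 PETs, above the 3 that a count of 0 allows, while JM12 had 2239 and JM11 had 14. No control library without antibody was analysed here.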

How the results depend on the processing

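No paired analysis was possible because the rows name no library, and for the same reason no library was left out in turn. Of the 61 alternative values for 8 main results, 37 stayed within the counting interval or within 1.5 times the main count, and 24 moved. No label for a reversal was used for the main results, so none could be recorded. The 1914 dense genes became 1248 with PETs between chromosomes only, 1220 with at least 30 ends and 1071 with ends in 1 span only. The 55.2% of ends in gene spans became 48.7% with no flank, 57.6% with 5 kb, 51.7% with PETs between chromosomes, 55.8% and 54.8% with linkers ATGT and TAAG, and 55.4% with 1 PET for each read-1 position and linker. Against JM12, the 1636 higher and 939 lower genes became 1007 and 258 with at least 50 ends, and 987 were higher with PETs between chromosomes. The lower count was 585 relative to the median gene and 551 with PETs of at most 8 kb. Against JM11, the 4321 and 723 became 2529 and 229 with at least 50 ends, and 1135 and 419 with PETs of at most 8 kb. The share of short PETs within a gene was 46.5% at 4 to 100 kb, 23.7% at 20 to 100 kb and 27.8% with no flank, and the share between genes 21.4%, 40.7% and 20.4%. A higher minimum tests fewer genes and PET subsets hold fewer ends; other causes were not tested. Of 504 alternative values for named genes 145 moved and 0 reversed. Among the low named ratios, 2 against JM12 and 2 against JM11 no longer passed 2-fold with PETs of at most 8 kb, and 2 against JM11 with PETs between chromosomes. With no flank 1 of the 25 densest genes, Slc35g3, fell below 5. The 1 PET for each read-1 position and the 1-span alternatives were chosen after seeing the data; 17.4% of JM08 PETs shared a read-1 position and linker, and with 1 of each kept 1941 genes were dense.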

Other observations

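Noncoding genes whose spans overlapped no protein-coding span were counted in the same way. Dense in JM08 were 57 of 6485 lncRNA genes, 10 of 306 miRNA genes, 12 of 284 tRNA genes, 7 of 563 snRNA genes and 6 of 782 snoRNA genes. Neat1, the RNA that builds nuclear paraspeckles, had 1061 JM08 ends and a relative density of 120, which is above that of any protein-coding gene with at least 100 ends, against 23.6 in JM12 and 14.9 in JM11. Malat1, an abundant nuclear RNA encoded next to it, had 150 ends and 36.6, against 9.08 and 6.24. Mir122, which encodes the main microRNA of hepatocytes, had 269 ends and 155, against 40.7 and 17.9. Gm33838 had 905 ends and 97.3 in JM08, 63.8 in JM12 and 51.3 in JM11, a smaller difference between pools than at the genes above, and whether it holds repeated sequence was not tested. These genes were chosen after their values were seen.

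In the RefSeq promoters of 1554 genes dense in JM08, GC boxes were found in 62.5% against 46.3% of all 17486 promoters, CCAAT boxes in 44.1% against 39.0%, E-boxes in 10.7% against 7.90% and cAMP response elements in 3.35% against 2.34%. TATA boxes were found in 10.2% against 13.3%, HNF1 half-sites in 5.47% against 6.29% and D-boxes in 0.515% against 0.909%. A TATA box on the gene's strand that begins 40 to 20 bases before the start was found in 3.02% against 2.84%. These shares are descriptions with no test.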
